A study of Mus musculus with 6 samples.

Results

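The BCL2 family decides whether the outer membrane of the mitochondrion is opened during apoptosis, and 10 of its genes were followed in human melanoma tumours grown in mice. They were selected by human Ensembl identifier, 10 of 15234 loci listed in the tumours. The antiapoptotic members were BCL2 (ENSG00000171791), BCL2L1 (ENSG00000171552) and MCL1 (ENSG00000143384). The effectors were BAX (ENSG00000087088) and BAK1 (ENSG00000030110). The BH3-only members were BCL2L11 (ENSG00000153094), BID (ENSG00000015475), BAD (ENSG00000002330), BBC3 (ENSG00000105327) and PMAIP1 (ENSG00000141682). All 6 tumours came from A375, an established melanoma line that carries an activating BRAF mutation and that the labels call wild type, injected under the skin of BALB/c nude mice, which lack T cells. A set of 3 tumours came from mice given vehicle by mouth once a day and another 3 from mice given ZLD1039 at 100 mg/kg in the same way, all taken on day 27. The compound blocks EZH2, the enzyme that places the repressive methyl mark of the Polycomb complex on histone H3. Each group held 5 mice. The labels do not say outright that each tumour came from its own mouse, so p-values speak only for the spread among the tumours sequenced. The model rests on 1 cell line.

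Effector proteins of the family form pores in the outer mitochondrial membrane, which releases cytochrome c and starts the caspase cascade. Antiapoptotic members hold the effectors and the BH3-only activators in check, and BH3-only proteins relay stress signals by occupying the groove of the antiapoptotic members or by switching on the effectors directly. In melanoma with mutant BRAF, signalling through ERK is known to lower BIM, the protein of BCL2L11, and melanoma cells are known to lean on MCL1 for survival.

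No member was called different between ZLD1039 and vehicle tumours. Of the 10 members, 9 reached the level needed for the test, a mean of at least 1 FPKM (fragments per kilobase of transcript, scaled to the mapped total of the tumour) in a group, and 0 of these 9 passed limma's test with Benjamini-Hochberg adjustment over all 10834 loci tested at 0.05, where 0.0185% of loci passed. At an unadjusted p under 0.05 the members again numbered 0, against 4.94% of all loci. The smallest adjusted p of a member was 0.88. The level of a locus was the largest of its summed start events, summed end events and largest single event, and differences are ZLD1039 minus vehicle on the log2(FPKM + 1) scale, which understates the change of low genes. On that scale 6 members lay below 0 and 3 above, and their median was −0.11 beside 0.02 over all loci. The groups did not overlap in 1 of the 9, BBC3, or 11.1%, beside 10.9% of all loci. The median standard error was 0.28 for the members and 0.23 for all loci, and the 95% intervals of the members reached from −1.67, for BAX, to 0.92, for BCL2L11.

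**Figure D1:**
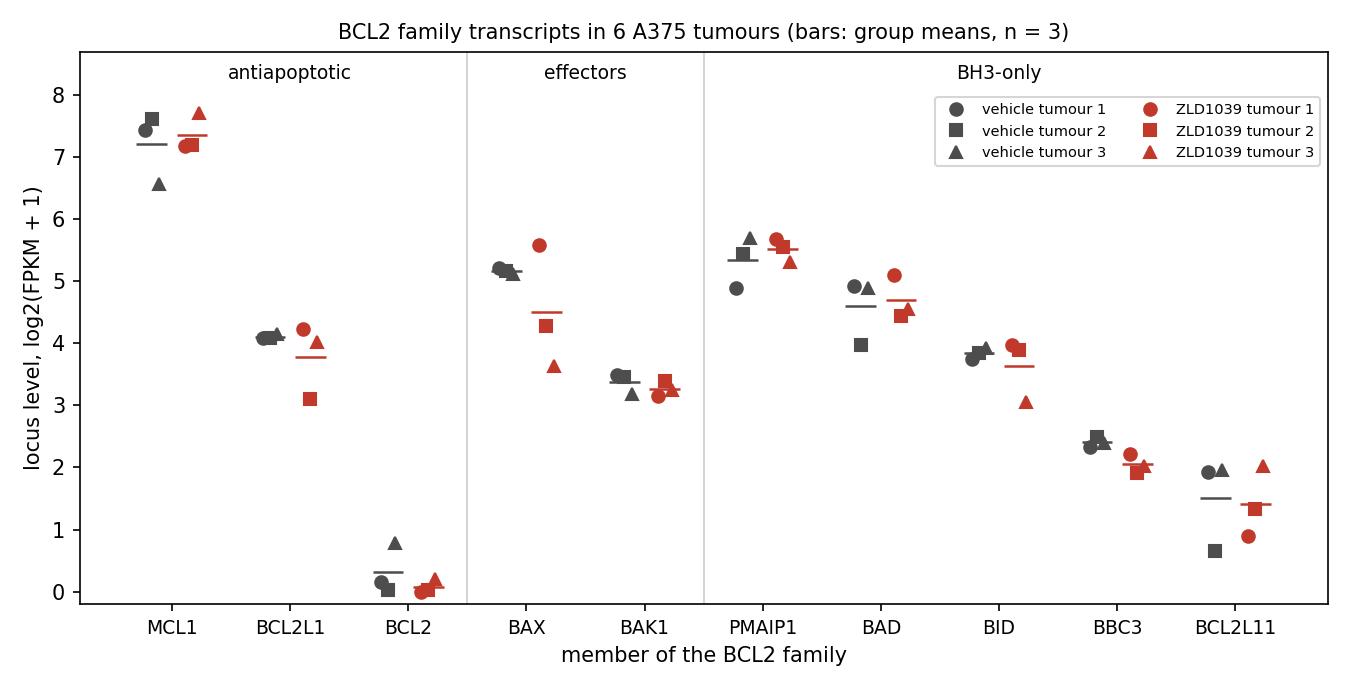
Locus level of each BCL2 family member as log2(FPKM + 1) on the vertical axis, with 1 symbol per tumour, vehicle in grey and ZLD1039 in red, and bars at the group means (n = 3). MCL1 lies above all other members in every tumour, BCL2 lies near 0, and the red BAX symbols lie on both sides of the grey ones.

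The levels, which FPKM gives per length of transcript, fell in a clear order at the top and blurred below it. Over the 6 tumours mean FPKM was 160 for MCL1, 42.8 for PMAIP1, 30.3 for BAX, 24.8 for BAD, 14.9 for BCL2L1, 12.6 for BID, 9.04 for BAK1, 3.74 for BBC3, 1.95 for BCL2L11 and 0.169 for BCL2. Of the neighbours in that order, MCL1 and PMAIP1, and BAK1 and BBC3, did not overlap in range. The other neighbours overlapped in range, and BAX exceeded BAD in 4 of 6 tumours. MCL1 made up 84.3% to 95.02% of the summed FPKM of the antiapoptotic members, and PMAIP1 37.1% to 56.2% of that of the BH3-only members. BAX made up 57.4% to 85.6% of the effector FPKM, with its 2 lowest shares in ZLD1039 tumours 2 and 3.

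Some features of the tumours bear on these values. Per tumour 12114 to 12758 loci were listed, and no count of fragments can be recovered from the values, so depth is unknown. ZLD1039 tumour 2 stood apart from the other 5, with a first principal component of 51.9 beside −13.3 to −4.02. Of 7 melanoma lineage markers 4 were listed: SOX10, S100B, MITF and PMEL. MLANA, TYR and DCT, pigment cell genes, were listed in no tumour. The summed level of the lineage markers was 53.9 to 81.2 FPKM in vehicle tumours and 24.3 to 56.2 in ZLD1039 tumours. Most of each sum was SOX10 alone, at 48.8 to 70.0 FPKM under vehicle and 21.3 to 50.2 FPKM under ZLD1039. MITF stood at 0.579 to 2.21 FPKM over all tumours, so the sums do not speak for the lineage genes as a set. PTPRC, VWF, CDH5 and HBB, which mark leukocytes, endothelium and red cells, were also unlisted. In a human graft such cells would come from the mouse, while the identifiers searched were human. That these genes were unlisted therefore cannot show how much host tissue the tumours held. The identifier of CD68, a macrophage marker, labels a merged locus of 122 events from 7452208 to 7483645 on chromosome 17, a span longer than the CD68 gene, so its 634 to 924 FPKM are not a CD68 level and were left out of the marker sums. The sum of 3 fibroblast genes was 1.16 to 7.24 FPKM under vehicle and 0.790 to 4.03 under ZLD1039, and it cannot show host content either. The features carry human identifiers, and how mouse host reads were handled is not given in the sources used here. EZH2, the drug's target, stood at 6.94 ± 0.133 FPKM (SD, n = 3) under vehicle and 8.55 ± 0.4501 under ZLD1039, a difference limma did not call (adjusted p = 0.88). Its groups did not overlap, at 6.85 to 7.09 FPKM under vehicle and 8.07 to 8.96 under ZLD1039, as in 10.9% of all loci. In bulk tumours, fewer cells of a type and less RNA per cell cannot be told apart.

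MCL1, whose short-lived protein sequesters BAK1 and BCL2L11, was the most abundant member. Its locus (chromosome 1, 150547032 to 150552006, minus strand, positions as in the files) was at 172, 196 and 93.3 FPKM in vehicle tumours 1 to 3 and at 144, 146 and 207 FPKM in ZLD1039 tumours 1 to 3. The lowest value was vehicle tumour 3 and the highest ZLD1039 tumour 3, so the groups overlapped. The difference was 0.15 with a standard error of 0.30 and a 95% interval from −0.54 to 0.85 (limma adjusted p = 0.94). Without vehicle tumour 3 it was −0.17 and without ZLD1039 tumour 3 −0.02, so its sign rested on single tumours.

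MCL1 transcripts took 1 form at every site listed. They shared 1 start (150551319 to 150552006) and 1 end (150547032 to 150549967), and the middle exon (150550720 to 150550967, 248 bases) was included at the full level of the locus in all 6 tumours. Skipping of that exon, which is known to give the proapoptotic short protein Mcl-1S and which removes a number of bases that 3 does not divide, was listed in no tumour. A skipped form below the reach of the authors' estimates would also be unlisted.

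BCL2L1 encodes Bcl-xL, which restrains BAX and BAK1. Its locus (chromosome 20, 30252255 to 30311792, minus strand) was at 15.9, 16.1 and 16.7 FPKM under vehicle and 17.7, 7.62 and 15.2 FPKM under ZLD1039. The vehicle tumours spanned a highest-to-lowest ratio of 1.05 and the ZLD1039 tumours one of 2.33, through ZLD1039 tumour 2. Among the 9 tested members such a ratio was wider under ZLD1039 in 4, and under vehicle in the others. The difference was −0.32 ± 0.28 (standard error), with an interval from −0.98 to 0.33 (limma adjusted p = 0.88), and it was 0.015 without ZLD1039 tumour 2.

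The coding exon of BCL2L1 was listed in 3 forms, and the tumours differed in which form led. The 694-base form (30309458 to 30310151) and the 676-base form (30309458 to 30310133) share the splice donor of Bcl-xL and differ by 18 bases at the acceptor. The 505-base form (30309647 to 30310151) ends 189 bases earlier at its donor, a loss of 63 codons, which is the known difference between Bcl-xL and the proapoptotic Bcl-xS.

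The 676-base form stood at 13.9, 2.48 and 15.2 FPKM in vehicle tumours and 3.03, 1.57 and 2.34 FPKM in ZLD1039 tumours. The 694-base form stood at 1.42, 13.6 and 0.638 FPKM and at 14.7, 5.18 and 11.03 FPKM. Vehicle tumour 2 thus had the pattern of the ZLD1039 tumours, with the 694-base form leading, and vehicle tumours 1 and 3 the opposite one. As a share of the exon, the 676-base form was 87.5%, 15.4% and 90.8% under vehicle and 17.1%, 20.6% and 15.4% under ZLD1039. That is a difference of −46.8 percentage points with an interval from −107 to 13.003 (limma adjusted p = 0.72), beside 0.0% of all 7427 exon end shares that passed. Left out singly, vehicle tumour 1 gave −35.4 points, vehicle tumour 2 −71.4 and vehicle tumour 3 −33.7, all short of the threshold. Both forms carry the donor of Bcl-xL.

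The Bcl-xS form was a small part of the locus. It was listed at 0.576 and 0.899 FPKM in vehicle tumours 1 and 3 and not in vehicle tumour 2, and at 0.872 and 1.79 FPKM in ZLD1039 tumours 2 and 3 and not in ZLD1039 tumour 1. Its share was 3.61%, 0.0% and 5.39% under vehicle and 0.0%, 11.4% and 11.8% under ZLD1039, a difference of 4.75 points with an interval from −5.33 to 14.8 (limma adjusted p = 0.72). The 2 highest shares were in ZLD1039 tumours, and ZLD1039 tumour 1 listed none. Left out singly, ZLD1039 tumour 1 gave 8.62 points, ZLD1039 tumour 2 gave 2.90 and ZLD1039 tumour 3 gave 2.72. BCL2L1 transcripts began at the start at 30310421 to 30310663 in 93.7% to 100.0% of its start FPKM and ended at 30252255 to 30253889 in all tumours.

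**Figure D2:**
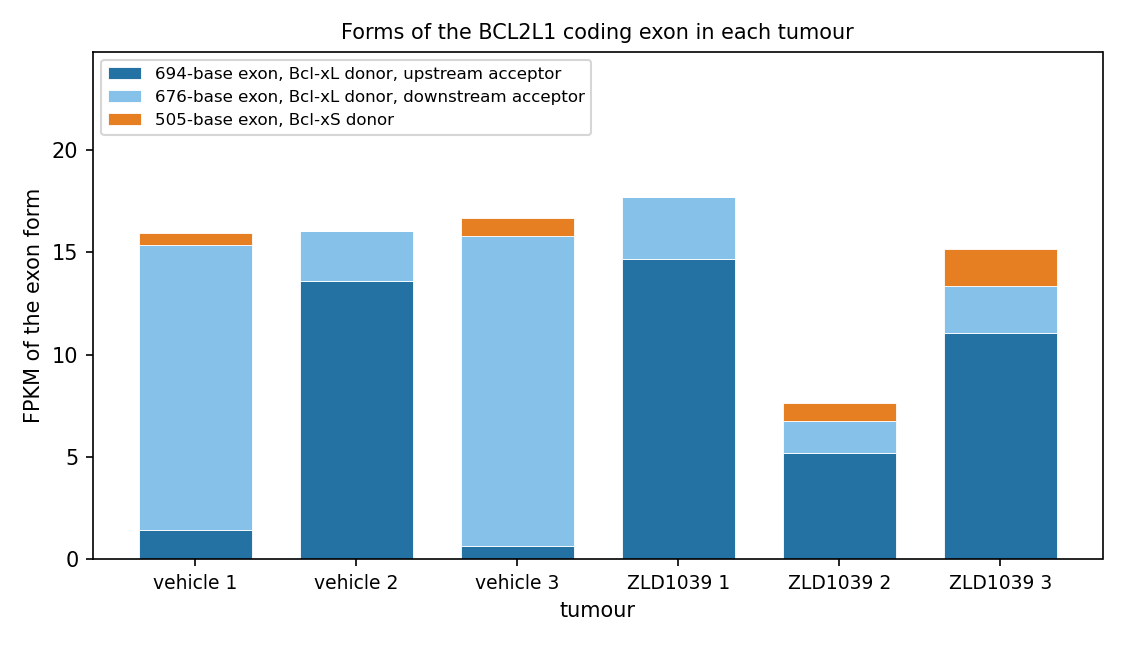
FPKM of the 3 forms of the BCL2L1 coding exon in each tumour, stacked: dark blue for 694 bases, light blue for 676 bases, orange for the 505-base form with the Bcl-xS donor. The light blue form leads in vehicle tumours 1 and 3, and the dark blue form in the other 4 tumours.

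BCL2, the founding antiapoptotic gene, was barely listed. Its locus held 1 start event (chromosome 18, 60986407 to 60987019, minus strand) at 0.108, 0.0147 and 0.726 FPKM in vehicle tumours and at 0.0168 and 0.147 FPKM in ZLD1039 tumours 2 and 3. ZLD1039 tumour 1 did not list it. The level was below that needed for the test, and no fold is given.

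BAX, the effector that moves from the cytosol to mitochondria, had the difference farthest from 0 among the members, and the ZLD1039 tumours went both ways. Its locus (chromosome 19, 49458072 to 49463593, plus strand) was at 36.3, 34.8 and 33.8 FPKM under vehicle and 47.1, 18.4 and 11.5 FPKM under ZLD1039. The vehicle tumours lay within a ratio of 1.07, while ZLD1039 tumour 1 exceeded all of them and tumours 2 and 3 fell short of all of them. The difference was −0.67 ± 0.43 (standard error, limma adjusted p = 0.88). In FPKM + 1 this is a ratio of 0.630 with an interval from 0.314 to 1.26. The difference was −1.21 without ZLD1039 tumour 1 (limma adjusted p = 0.35) and −0.24 without ZLD1039 tumour 3.

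A lineage gene was low in the same tumours as BAX, and was picked out here after its values were seen. SOX10, the neural crest factor that leads the lineage markers, stood at 48.8, 56.0 and 70.0 FPKM under vehicle and 50.2, 21.8 and 21.3 FPKM under ZLD1039. It did not pass the adjusted test (limma adjusted p = 0.88), and its part in the BAX values was not tested. The other lineage markers did not all share this pattern. MITF was lowest in ZLD1039 tumour 1, at 0.579 FPKM, beside 1.34 and 1.38 FPKM in ZLD1039 tumours 2 and 3. Under vehicle it stood at 1.43, 1.39 and 2.21 FPKM, so the groups did not overlap, as in 10.9% of all loci. S100B stood at 3.24, 4.48 and 8.98 FPKM under vehicle and at 5.41, 1.09 and 3.36 FPKM in ZLD1039 tumours 1 to 3. Means of SOX10, MITF and S100B were lower under ZLD1039, and none passed the adjusted test. PMEL, too low for the test, averaged 0.179 FPKM under vehicle and 0.0905 under ZLD1039.

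The use of BAX start sites differed between tumours as well. The leading start (49458117 to 49458219) carried 34.0, 34.0 and 31.7 FPKM under vehicle and 36.0, 7.20 and 8.85 FPKM under ZLD1039. A start inside the gene, past the third exon (49459110 to 49459590), carried 0.0643, 0.0873 and 0.0687 FPKM under vehicle and 7.29, 9.91 and 0.142 FPKM under ZLD1039. It was low in all vehicle tumours and in ZLD1039 tumour 3, and the groups did not overlap.

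As shares of the BAX start FPKM, the leading start held 93.6%, 97.5% and 93.8% under vehicle and 76.4%, 39.1% and 77.2% under ZLD1039. The difference was −30.7 points with an interval from −57.6 to −3.85, an unadjusted p of 0.031 and a limma adjusted p of 0.76, beside 0.0% of 21321 start shares that passed. The start past the third exon held 0.177%, 0.251% and 0.203% and then 15.5%, 53.9% and 1.24%, a difference of 23.3 points with an interval from −9.87 to 56.5. A start whose first exon runs on into the second (49458072 to 49458856) held 6.20%, 2.21% and 5.91% and then 8.07%, 6.92% and 20.6%. These shares sum to 100% within a tumour, so they are not separate observations. Without ZLD1039 tumour 2 the leading share differed by −18.2 points and the share past the third exon by 8.15.

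**Figure D3:**
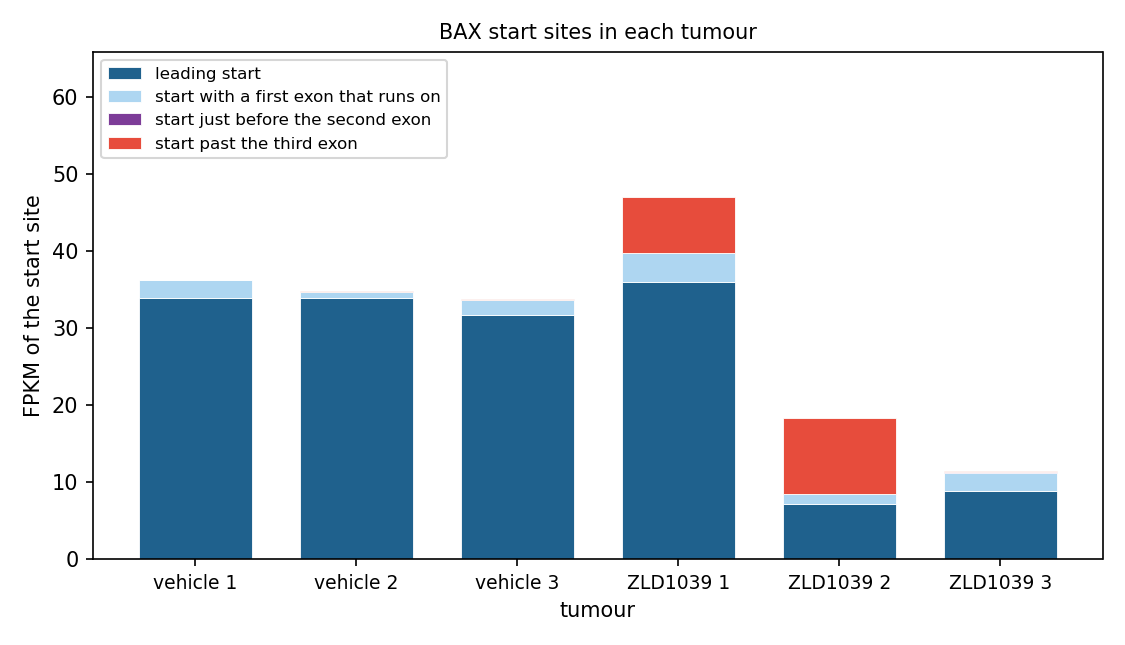
FPKM of each BAX start site in each tumour, stacked, with the leading start in dark blue and the start past the third exon in red. The red part is visible in ZLD1039 tumours 1 and 2 alone, at 7.29 and 9.91 FPKM, and the dark blue part is lowest in ZLD1039 tumours 2 and 3.

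Splicing of BAX varied from tumour to tumour. Transcripts that join the first 4 exons with the intron between the second exon and the third (49458856 to 49458944) removed stood at 20.4, 22.05 and 29.5 FPKM under vehicle and 22.2, 6.86 and 8.85 FPKM under ZLD1039. The difference was −1.02 with an interval from −2.02 to −0.03, an unadjusted p of 0.046 and a limma adjusted p of 0.85. Retention of this intron was 6.82%, 11.6% and 0.0% under vehicle and 0.0%, 0.0% and 0.0398% under ZLD1039, a difference of −6.14 points with an interval from −14.5 to 2.25 (limma adjusted p = 0.71). It was −3.39 points without vehicle tumour 2 and −9.21 without vehicle tumour 3.

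The third exon of BAX, 147 bases and thus 49 whole codons, was skipped at 11.7, 9.01 and 0.00144 FPKM in vehicle tumours and 13.02 and 0.00162 FPKM in ZLD1039 tumours 1 and 2. Tumours of both groups held the skip at high and at near-zero levels. Inclusion of that exon was 66.0%, 71.7% and 100.0% and then 66.6%, 100.0% and 100.0%, a difference of 9.63 points with an interval from −22.8 to 42.0. A late exon (49463496 to 49463593, 98 bases) was included at 1.4998 FPKM in vehicle tumour 3 and 6.85 FPKM in ZLD1039 tumour 2, and in no other tumour. No end event of BAX was listed.

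BAK1, the effector that resides at the mitochondrion, had the narrowest range of the 9 tested members. Its locus (chromosome 6, 33540329 to 33547997, minus strand) was at 10.3, 9.96 and 8.08 FPKM under vehicle and 7.93, 9.49 and 8.49 FPKM under ZLD1039. The highest and lowest tumours differed by a ratio of 1.30, and the groups overlapped. The difference was −0.11 ± 0.17 (standard error) with an interval from −0.50 to 0.27 (limma adjusted p = 0.91), and from −0.21 without vehicle tumour 3 to −0.053 without vehicle tumour 1. Its start (33547802 to 33547997) carried the full locus level in every tumour, and its end lay at 33540329 to 33541684. An exon of 20 bases (33542283 to 33542302) was skipped in all BAK1 transcripts listed.

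PMAIP1, which encodes NOXA, the BH3-only partner of MCL1, was the most abundant BH3-only member on average. Its locus (chromosome 18, 57563645 to 57571538, plus strand) was at 28.6, 42.6 and 51.1 FPKM under vehicle and 50.5, 45.7 and 38.6 FPKM under ZLD1039. The groups overlapped, and vehicle tumour 1 was the lowest. The difference was 0.17 ± 0.23 (standard error) with an interval from −0.38 to 0.71 (limma adjusted p = 0.91), and −0.061 without vehicle tumour 1.

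PMAIP1 began at 57567180 to 57567467 in 83.1% of its start FPKM in vehicle tumour 1 and in 100.0% in the other 5. Its 1 listed end (57567660 to 57571538) was at 3.29 and 5.51 FPKM in vehicle tumours 1 and 2 and at 6.57 FPKM in ZLD1039 tumour 3. Inclusion of an extra exon (57567660 to 57567810, 151 bases) was 0.114%, 5.22% and 4.53% under vehicle and 0.0%, 2.88% and 37.8% under ZLD1039. ZLD1039 tumour 3 stood alone there, at 12.1 FPKM for the included form, and the difference of 10.3 points had an interval from −14.6 to 35.2 (limma adjusted p = 0.71).

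BAD, a BH3-only protein held inactive by phosphorylation under survival signals, had overlapping groups. Its locus (chromosome 11, 64039085 to 64052176, minus strand) was at 29.2, 14.7 and 28.6 FPKM under vehicle and 33.4, 20.8 and 22.4 FPKM under ZLD1039. Vehicle tumour 2 was the lowest, and the sign turned to −0.21 without it and to −0.10 without ZLD1039 tumour 1. With all tumours the difference was 0.10 ± 0.30 (standard error), with an interval from −0.59 to 0.80 (limma adjusted p = 0.96).

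The BAD locus overlaps 1 locus on the other strand (ENSG00000173264), listed at 10.2, 12.7 and 13.3 FPKM under vehicle and 15.7, 11.7 and 8.16 FPKM under ZLD1039. Whether the authors' values use strand is not given in the sources used here, so reads of the pair may not be told apart. The leading start of BAD (64052103 to 64052176) held 97.5%, 98.7% and 73.98% of its start FPKM under vehicle and 99.5%, 99.1% and 99.5% under ZLD1039. The groups did not overlap, vehicle tumour 3 stood apart, and the difference of 9.29 points had an interval from −7.55 to 26.1 (limma adjusted p = 0.76). An exon of 140 bases (64044376 to 64044515) was included at 0.0199, 0.0149 and 0.708 FPKM under vehicle and 1.00, 0.0627 and 8.91 FPKM under ZLD1039. In ZLD1039 tumour 3 that made 40.2% of the transcripts across it, beside 0.0703% to 3.04% in the other 5 (difference 13.6 points, interval −12.2 to 39.4).

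BID, which links caspase-8 to mitochondria once cleaved, was even in 5 tumours. Its locus (chromosome 22, 18216906 to 18257431, minus strand) was at 12.5, 13.3 and 14.1 FPKM under vehicle and 14.7, 13.8 and 7.32 FPKM under ZLD1039. ZLD1039 tumour 3 alone was low. The difference was −0.20 ± 0.25 (standard error) with an interval from −0.79 to 0.39 (limma adjusted p = 0.91), and 0.093 without that tumour. The leading start (18257147 to 18257258) held 99.4% to 100.0% of the start FPKM, and the end lay at 18216906 to 18218357. A run of skippable exons from 18226569 to 18232940 was included in 32.7%, 29.5% and 36.0% under vehicle and 36.4%, 35.0% and 33.1% under ZLD1039. That share was nearly the same in all 6 tumours, also in the tumour with the low level (difference 2.13 points, interval −32.0 to 36.2, a width that limma's shared estimate of the spread sets).

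BBC3, which encodes PUMA, a BH3-only protein that binds all antiapoptotic members, was lower in every ZLD1039 tumour than in any vehicle tumour, short of the threshold. Its locus (chromosome 19, 47724081 to 47736023, minus strand) was at 4.05, 4.63 and 4.26 FPKM under vehicle and 3.65, 2.76 and 3.06 FPKM under ZLD1039. Means were 4.31 ± 0.293 FPKM (SD, n = 3) and 3.16 ± 0.453 FPKM. The difference was −0.36 ± 0.18 (standard error, limma unadjusted p = 0.082, adjusted p = 0.88). In FPKM + 1 this is a ratio of 0.780 with an interval from 0.585 to 1.04. The difference ranged from −0.44 to −0.29 when tumours were left out in turn.

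The starts of BBC3 were spread over several sites, and the groups overlapped at each. The leading start (47735772 to 47736023) held 51.1%, 31.3% and 23.4% under vehicle and 26.1%, 80.7% and 65.5% under ZLD1039. The next (47734186 to 47734451) held 27.9%, 39.6% and 76.6% and then 34.4%, 19.3% and 0.0%. The difference of the latter was −30.1 points with an interval from −74.2 to 13.95 (limma adjusted p = 0.76), and −15.9 points without vehicle tumour 3. The end of BBC3 lay at 47724081 to 47725175 and carried the full locus level in all tumours.

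BCL2L11, which encodes BIM, a BH3-only activator, was low and uneven in both groups. Its locus (chromosome 2, 111878491 to 111922625, plus strand) was at 2.80, 0.580 and 2.87 FPKM under vehicle and 0.863, 1.51 and 3.07 FPKM under ZLD1039. Each group spanned a wide range, with a highest-to-lowest ratio of 4.95 under vehicle and 3.56 under ZLD1039. The difference was −0.10 ± 0.44 (standard error) with an interval from −1.11 to 0.92 (limma adjusted p = 0.97). Its sign turned when vehicle tumour 1 (0.11), vehicle tumour 3 (0.12) or ZLD1039 tumour 1 (0.16) was left out.

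BIM splice forms could be read in 4 of the 6 tumours. An intron of 180 bases (111881446 to 111881627), worth 60 codons, stays in the transcript of BimEL, the long form that carries sites for phosphorylation by ERK, and is removed in BimL. Transcripts with the stretch stood at 2.53 and 0.580 FPKM in vehicle tumours 1 and 2 and at 1.401 and 1.86 FPKM in ZLD1039 tumours 2 and 3. Transcripts without it stood at 0.227 FPKM in vehicle tumour 1 and at 0.109 and 0.192 FPKM in ZLD1039 tumours 2 and 3. The share with the stretch was therefore 91.8% and 100.0% under vehicle and 92.8% and 90.6% under ZLD1039, and BimEL led wherever a form was listed. Vehicle tumour 3 and ZLD1039 tumour 1 listed neither form, so the share was not tested.

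The leading start (111878491 to 111878765) was at 2.56 and 0.580 FPKM in vehicle tumours 1 and 2 and at 1.51 and 2.05 FPKM in ZLD1039 tumours 2 and 3, while the end (111921710 to 111922625) was listed in all 6. An exon near the 3' side (111907621 to 111907724) was included at 2.56 and 0.580 FPKM in vehicle tumours 1 and 2 and at 1.51 and 1.92 FPKM in ZLD1039 tumours 2 and 3. In ZLD1039 tumour 3 alone it was also skipped, at 1.01 FPKM, which put inclusion at 65.5% there beside 100.0% in the other 3, and a start at 111881323 to 111881716 was listed in that tumour alone at the same 1.01 FPKM. The exons at 111902065 to 111902097, 111911357 to 111911481 and 111918996 to 111919127, the run from 111909399 to 111911481 and the exon at 111887709 to 111887824 were mostly skipped, at 0.580 to 2.75 FPKM where listed.

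**Figure D4:**
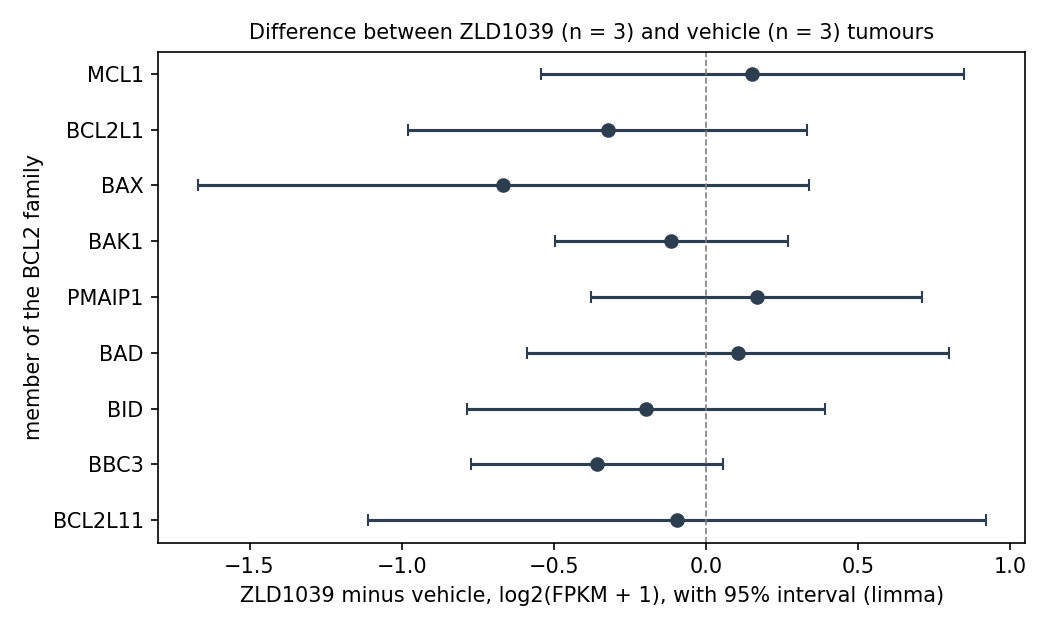
Difference of each tested member on the log2(FPKM + 1) scale, ZLD1039 minus vehicle, with limma's 95% interval (n = 3 in each group). All 9 intervals cross 0, and that of BAX is among the widest, from −1.67 to 0.34.

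Over single events the picture was the same. The members held 109 events, of which 68 reached the test and 0 passed (smallest adjusted p = 0.85), beside 0.0377% of all 87435 events. At an unadjusted p under 0.05 there were 5 events, 7.35% of those tested beside 4.72% of all. They reduce to 3 sets of values, since events of 1 transcript carry 1 value: the 676-base form of BCL2L1, the BAX start past the third exon, and 3 BAX events around the intron between the second exon and the third. These are the 5 smallest p-values among the members' events. Leaving out tumours in turn moved the number from 0, without vehicle tumour 1 or without ZLD1039 tumour 2, to 11, without ZLD1039 tumour 1. Without ZLD1039 tumour 1 these were 11 of 69 tested, beside 5264 of 87887 over all events. Without vehicle tumour 1 they were 0 of 70, beside 3957 of 87522, and without ZLD1039 tumour 2 they were 0 of 68, beside 3863 of 87798. The number over all events was thus also highest without ZLD1039 tumour 1, and member events repeat values. In 2 of the 68 events, 2.94%, the groups did not overlap (the BAX start past the third exon, higher, and the BBC3 end, lower), beside 10.3% of all events.

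Shares of forms passed no threshold either. Of 8 member exons and introns that could be tested, 0 passed, beside 0.0% of 13311, and 0 had an unadjusted p under 0.05, beside 2.04%. Of 14 start shares, 0 passed and 1, the leading BAX start, had an unadjusted p under 0.05, beside 2.49% of all. The groups did not overlap in 4 of the 14, 28.6%, beside 8.04% of all; 3 of them are BAX shares that sum with the others to 100%. Of 5 exon end shares, 0 passed and 0 had an unadjusted p under 0.05, beside 2.3% of all. No end share of a member could be tested. The 5 shares with the smallest unadjusted p were the leading BAX start, the 676-base form of BCL2L1, the retained BAX intron, the BAX start past the third exon and the BBC3 start at 47734186.

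The wider machinery of intrinsic apoptosis, a list of 35 further genes, held no called gene. The files list 28 of them and 26 reached the test. Not listed were BCL2L2, BCL2L10, BCL2L14, HRK, BMF, DIABLO and USP9X, which need not be silent. The symbols of the list were paired with identifiers from background knowledge, and the chromosome in the files matched for 28 of 28. The number that rose was 0 and the number that fell was 0, beside 0.0185% of all loci called in either direction. Of the 26, 13 lay above and 13 below 0, with a median of 0.04 beside 0.02 over all loci. At an unadjusted p under 0.05 there were 2 of the 26, BIRC3 and BIRC5, beside 4.94% of all loci. Both are genes of the inhibitor of apoptosis (IAP) group, and they lay on opposite sides of 0. The groups did not overlap in 4 of the 26, 15.4%, beside 10.9% of all loci: VDAC1 was higher, and BIRC3, HTRA2 and APAF1 were lower.

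BIRC3, which encodes cIAP2, a ubiquitin ligase of the NF-kappaB pathway, had the lowest difference. It stood at 6.46, 5.02 and 7.02 FPKM under vehicle and 3.63, 1.86 and 3.16 FPKM under ZLD1039, lower in all 3 treated tumours. The difference was −0.90 with an interval from −1.45 to −0.36, an unadjusted p of 0.0052 and a limma adjusted p of 0.88. BIRC5, which encodes survivin, a protein of mitosis as well as an IAP, had the highest difference. It stood at 7.62, 6.59 and 12.4 FPKM under vehicle and 11.6, 18.3 and 16.4 FPKM under ZLD1039, a difference of 0.76 with an interval from 0.15 to 1.37 (unadjusted p = 0.020, limma adjusted p = 0.88).

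FOXO3, a transcription factor known to act on BCL2L11 and BBC3, followed with 0.57 and an interval from −0.10 to 1.23, and with 0.86 without vehicle tumour 3. It stood at 1.01, 1.1404 and 2.82 FPKM under vehicle and 2.67, 2.81 and 2.81 FPKM under ZLD1039, and vehicle tumour 3 lay with the treated tumours. HTRA2, a mitochondrial protease that counters IAPs, had the next lowest difference, −0.45 with an interval from −0.91 to 0.02, and −0.26 without vehicle tumour 3. Its values were 8.003, 8.60 and 12.6 FPKM and then 6.64, 7.58 and 6.09 FPKM.

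The 3 most abundant genes of the list were BNIP3, VDAC1 and CYCS. BNIP3, a hypoxia-responsive mitochondrial protein of mitophagy, was at 139, 139 and 112 FPKM under vehicle and 132, 167 and 94.5 FPKM under ZLD1039. VDAC1, the main channel of the outer membrane, was at 48.7, 51.5 and 56.4 FPKM and at 57.8, 59.96 and 58.1 FPKM, a difference of 0.17 with an interval from −0.17 to 0.50. CYCS, which encodes cytochrome c, was at 28.7, 27.6 and 32.0 FPKM and at 30.1, 52.9 and 37.9 FPKM, with its highest value in ZLD1039 tumour 2 and a difference of 0.41 (interval −0.10 to 0.91), or 0.19 without that tumour. The apoptosome and caspases group was even, with 4 of 8 genes above 0 and 4 below, and all 3 VDAC channels lay above 0 without passing the test.

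**Figure D5:**
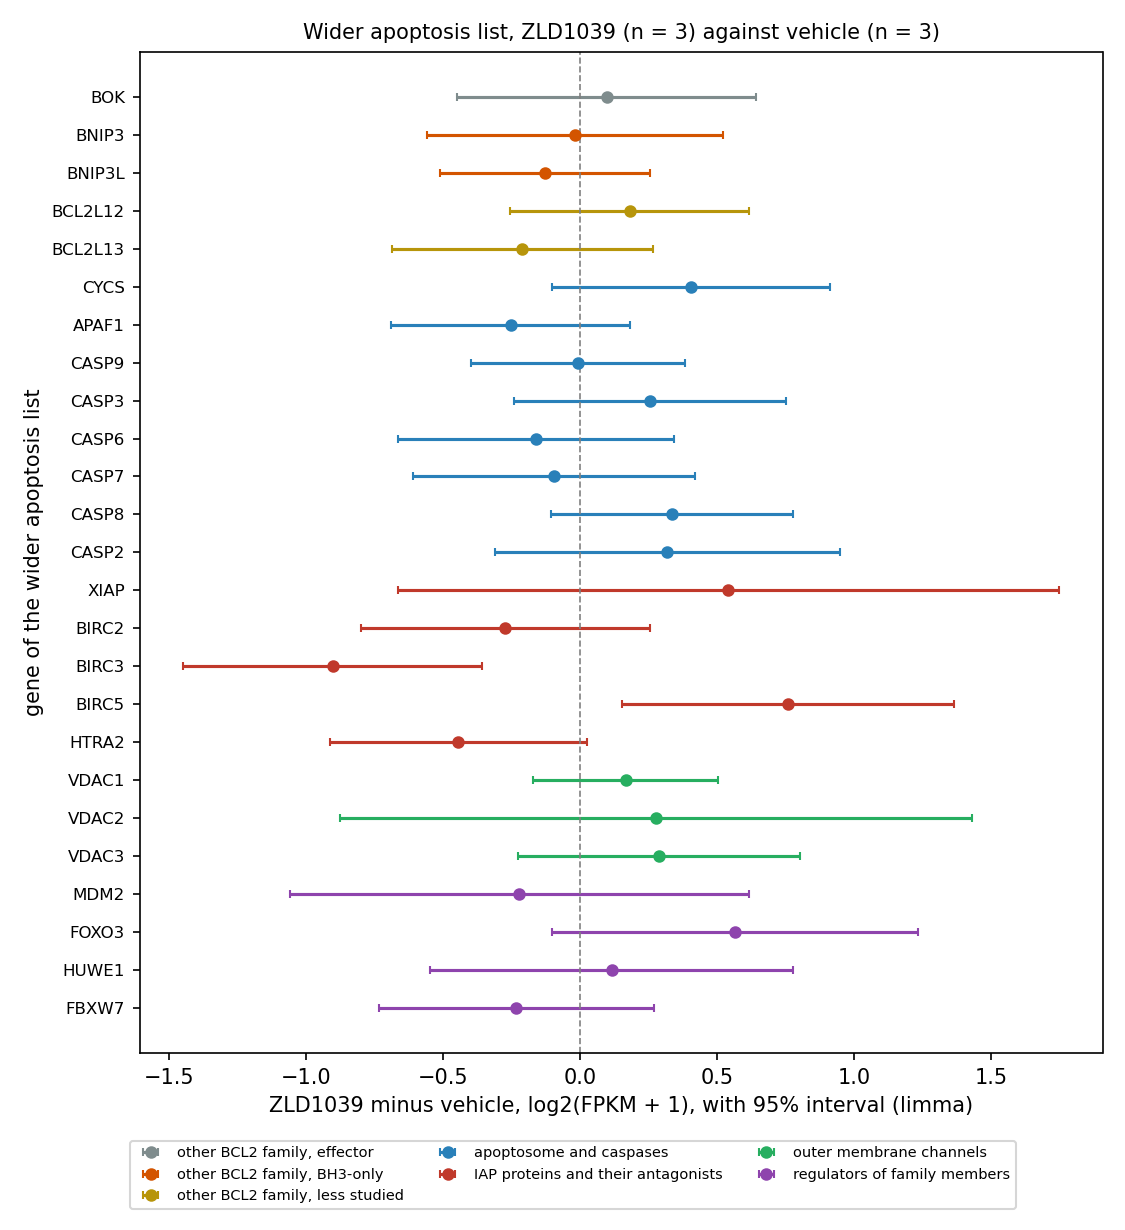
Differences of 25 of the 26 tested genes of the wider apoptosis list on the log2(FPKM + 1) scale, ZLD1039 minus vehicle, with limma's 95% interval (n = 3 in each group), coloured by role. Of those drawn, the intervals of BIRC3 and BIRC5 alone leave out 0, on opposite sides, and neither passed the adjusted test.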

How the data were processed

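RNA from 3 vehicle and 3 ZLD1039 tumours was measured. The deposited values are FPKM, 1 for each transcript event of a tumour, per the file headers. Per the submitters' processing notes, the tools included HTSeq 0.6.1 and bcl2fastq 2.17.1.14, with mm10 as the build. The chromosome numbers in the files run past those of that build and the identifiers are human, so positions are given as in the files with no build. The aligner is not given in the sources used here.

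Unlisted events were given the value 0, and need not be silent. A spreadsheet had cut the coordinates of skipped junctions to 15 digits, and events were matched on those digits. Of 783386 event values, 885 could not be told apart and were summed. Loci, events and shares went through limma 3.58.1 (R 4.3.3), with a trend and Benjamini-Hochberg adjustment over all features. Levels were log2(FPKM + 1), kept at a mean of at least 1 FPKM in a group. Shares needed a mean total of at least 1 FPKM, a total above 0 in all 6 tumours and a mean between 1% and 99%. Intervals are 95% intervals. The fits were also run on simulated data with independent normal noise for each feature. Real events often repeat values, so that simulation gives no detection rate for these data.

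The members, the lists and the form of the locus level were chosen with earlier results of these data known. All members are named, with their leading start and end, the exon and intron events of BCL2L1, MCL1 and BCL2L11 whose group mean reached 1 FPKM in either group, the 5 events and 5 shares with the smallest p, and the wider list's 2 highest, 2 lowest and 3 most abundant genes. Of the wider list, 1 tested gene counts in the totals and is not reported here by itself.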

Additional observations from a re-analysis of the deposited data

How the results depend on the processing

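The number of members called was 0 in each of 14 other settings for loci, 12 for events and 10 for shares, and the number of called genes of the wider list was 0 in each of 11. The settings were another pseudocount, no filter, other scalings, no trend, other forms of the locus level or share, stricter totals, and leaving out each tumour. Of 126 recomputed member differences, 11 turned sign and 0 passed. The smallest adjusted p was 0.35, for BAX without ZLD1039 tumour 1. BAX, BAK1 and BBC3 kept their sign throughout. With summed start events BCL2L11 was 0.28, FOXO3 −0.078 and BNIP3 2.04. Leaving out tumours in turn gave −0.21 to 0.27 for BAD, −0.54 to 0.015 for BCL2L1, −0.52 to 0.16 for BCL2L11, −0.37 to 0.093 for BID, −0.17 to 0.36 for MCL1, −0.061 to 0.35 for PMAIP1 and −0.21 to 0.20 for BNIP3; the cause was not tested. Without a filter BCL2 was also tested, at −0.24 (adjusted p = 0.79). Same-numbered tumours did not deviate together (correlations −0.03, 0.02 and −0.06, beside −0.06 to 0.11 for unlike numbers). With 3 tumours in a group, this cannot decide whether the numbers pair them. With a replicate block the number of members called was again 0 (all loci 0, from 2). Without the trend, 5 start shares passed upward and 6 downward of 21321 over all loci, where 0 had passed with it. Of 13311 exons and introns, 8 passed upward and 12 downward without the trend, again from 0. None of these belonged to a member. Other scalings moved the median of all loci from 0.02 to between 0.00192 and 0.0118. Depth is unknown, so no limit of detection is given for unlisted forms.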
